A study of Homo sapiens with 4 samples.

Results

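The clustered histone genes supply the bulk of new histone protein during DNA replication, and they were followed here in melanoma cells treated with C646, an inhibitor of histone acetyltransferases. Their members were all probe sets of the deposited value table annotated to a gene formerly named HIST1H, HIST2H, HIST3H or HIST4H, or now named H1-1 to H1-6 or with the stems H2AC, H2BC, H3C and H4C. The rule used no expression value and found 71 of 27631 probe sets. They carried 72 different gene symbols: 54 probe sets named a single gene, covering 53 genes, and 17 named several, which left 19 symbols without a probe set of their own. By family there were 6 probe sets for the linker histone H1, 17 for H2A, 19 for H2B, 12 for H3 and 15 for H4, and 2 that joined H3 with H2A or H2B symbols.

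WM35 is a human cell line from a radial phase melanoma, and C646 is a small molecule that inhibits the acetyltransferases p300 and CBP. Cultures in serum-containing medium received 20 µM C646 or 0.2% DMSO, the solvent, and were collected after 6 h or 24 h. Each of the 4 conditions was measured on 1 Affymetrix exon array, so each value given for a treatment subtracts the DMSO array from the C646 array on the log2 scale, with no replicate check. A difference of 1 is 2-fold.

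Nucleosomes wrap DNA around a core of H2A, H2B, H3 and H4, and H1 binds the linker DNA between cores. Most genes for these proteins lie in clusters on chromosome 6 and chromosome 1, lack introns, and are transcribed mainly in S phase. Their messenger RNAs normally end in a stem-loop instead of a poly(A) tail, are made with the help of NPAT and SLBP, and are degraded quickly once DNA synthesis stops. Each core histone is encoded by many near-identical copies, so a probe set can take up signal from a sister gene and single-gene values are uncertain.

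The promoters show what the families share beyond their names, and RefSeq sequences of GRCh38.p14 matched 65 of the 72 symbols. The 250 bases before the start site were searched on both strands for ATTTGCAT (the octamer bound by POU2F1), CCAAT (bound by NF-Y), TATAAA (the core promoter box), GGTCCG (part of the H4 element bound by HINFP) and TTTCGCGC (a form of the E2F site). The 6 stretches below are the 160 bases before the start, 5′ to 3′ along the gene, with matches of either strand in capitals, and the motifs do not overlap in them. They were chosen to set H2B genes with a large and with no difference side by side, and H4 and H3 genes that went apart. H2BC3 is at chr6:26043714-26043873 on the minus strand, H2BC14 at chr6:27814862-27815021 on the plus strand, H2BC5 at chr6:26157961-26158120 on the plus strand, H4C4 at chr6:26189113-26189272 on the minus strand, H4C14 at chr1:149832497-149832656 on the plus strand and H3C2 at chr6:26032100-26032259 on the minus strand.
H2BC3: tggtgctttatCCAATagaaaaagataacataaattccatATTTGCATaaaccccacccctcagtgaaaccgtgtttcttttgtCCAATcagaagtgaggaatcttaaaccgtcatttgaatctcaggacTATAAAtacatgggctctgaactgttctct
H2BC14: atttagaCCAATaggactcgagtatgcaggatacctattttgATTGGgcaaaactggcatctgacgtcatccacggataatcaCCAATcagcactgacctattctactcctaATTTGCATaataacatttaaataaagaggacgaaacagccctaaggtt
H2BC5: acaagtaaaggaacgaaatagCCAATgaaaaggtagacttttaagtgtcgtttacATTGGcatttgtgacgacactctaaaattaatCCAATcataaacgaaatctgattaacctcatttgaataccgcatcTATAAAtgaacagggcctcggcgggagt
H4C4: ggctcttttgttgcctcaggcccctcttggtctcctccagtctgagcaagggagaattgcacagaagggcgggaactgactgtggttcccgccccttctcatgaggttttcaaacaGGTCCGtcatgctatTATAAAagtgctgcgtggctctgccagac
H4C14: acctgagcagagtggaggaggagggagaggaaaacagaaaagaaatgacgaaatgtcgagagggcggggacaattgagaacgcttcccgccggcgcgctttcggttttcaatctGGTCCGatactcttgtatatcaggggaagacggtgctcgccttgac
H3C2: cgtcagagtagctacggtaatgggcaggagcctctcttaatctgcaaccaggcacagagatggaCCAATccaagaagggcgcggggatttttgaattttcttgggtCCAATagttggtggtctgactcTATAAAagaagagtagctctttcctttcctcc

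The motifs followed the family. CCAAT was present in every H1, H2A, H2B and H3 promoter that was matched but in 3 of 13 for H4, against 32.0% of all 35116 promoters in the table. The octamer was found in 14 of 18 H2B and 11 of 16 H2A promoters, in 1 of 12 for H3 and in none of the 6 for H1 or the 13 for H4, against 1.63% of all promoters. GGTCCG was found in 12 of 13 H4 promoters and in 3 of the remaining 52, against 9.43%. TATAAA was in 43 of 65 (10.7% of all promoters) and TTTCGCGC in 11 of 65 (0.439%). Neighbouring H2A and H2B genes read the same stretch in opposite directions, so their matches are not independent.

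The 4 arrays lay on a common scale, with medians of 4.39 to 4.41. Across all probe sets the 3 arrays other than C646 at 24 h correlated with each other at 0.991 to 0.996, and the C646 array of 24 h with the others at 0.975 to 0.979. Melanocyte markers were present: 6 of 8 had a probe set of their own, all 6 above the 40th percentile of all probe sets (3.96), among them PMEL at 10.69 to 10.95. Of other lineages, 1 of 4 measured keratinocyte, 2 of 4 fibroblast, 0 of 4 leukocyte and 1 of 5 endothelial markers exceeded that level, and the highest was KDR at 7.66 to 8.65. With C646 at 24 h the melanocyte markers had a median of 0.57, with none of the 6 below 0, and their part in the histone differences was not tested.

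After 6 h of C646, the clustered histone genes as a group lay close to their vehicle values. The median difference was -0.067 over the 71 probe sets, with 51 below 0. Over all 27631 probe sets it was -0.0059, with 14360 below 0. In this bulk RNA, fewer cells in S phase and less histone RNA per cell cannot be told apart. Only H2BC3 was at least 2-fold lower, 1 of 71, where 0.0724% of all probe sets were. None of the 71 was at least 2-fold higher, where 0.0796% of all were. At 1.5-fold, 5 of 71 were lower, where 0.818% of all probe sets were: H2BC3 at -1.26, H3C12 at -0.69, H4C4 at -0.64, H2AC4 at -0.62 and H4C3 at -0.60. H3C2 alone was 1.5-fold higher, at 1.00 and just short of 2-fold, where 0.698% of all probe sets were.

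After 24 h, most clustered histone genes were lower with C646. The median difference was -1.08, with 64 of 71 probe sets below 0. Over all 27631 probe sets the median was -0.0026, with 13965 below 0. At least 2-fold lower were 40 of 71, where 1.51% of all probe sets were, and 2.5% of those at or above the 40th percentile. Of the 71, 62 passed that filter, and all 40 were among them. At least 4-fold lower were 18 of 71 (0.394% of all probe sets) and at least 8-fold lower 6 (0.0724%), while none was 2-fold higher (0.72%). Just inside 2-fold were the probe set shared by H2AC18 and H2AC19 at -1.03 and H2AC17 at -1.05, and just outside were H2BC9 at -0.96 and H2AC12 at -0.94.

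**Figure D1:**
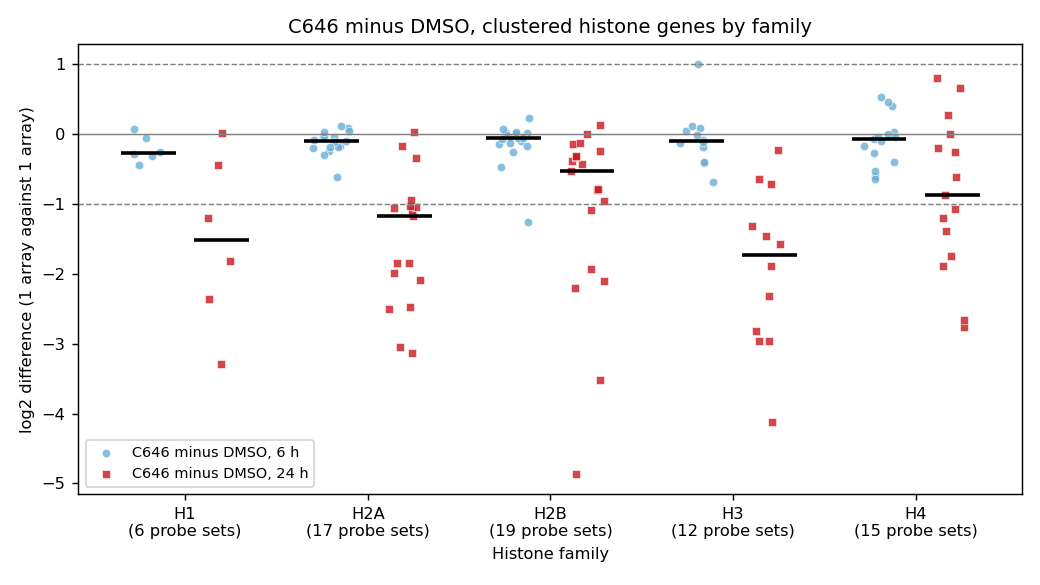
Log2 difference of C646 minus DMSO for each clustered histone probe set of a single family, at 6 h (circles) and 24 h (squares), 1 array against 1 array. Black bars are medians and dashed lines mark 2-fold. Probe sets that joined H3 with H2A or H2B symbols are not drawn. The 6 h points run from H2BC3 at -1.26 to H3C2 at 1.00, and the 24 h points spread down to -4.86.

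The linker histone H1, which compacts the fibre, had a median of -0.27 at 6 h and -1.51 at 24 h, with 4 of 6 probe sets at least 2-fold lower at 24 h. H1-5 read 8.39 with DMSO and 8.11 with C646 at 6 h, and 8.18 and 4.89 at 24 h, a difference of -3.29. The fall sat in the 24 h C646 array alone. H1-3 read 6.44, 5.99, 6.24 and 3.88 in the same order, with differences of -0.45 and -2.36. H1-1 was at -1.82 and H1-2 at -1.20 at 24 h. H1-4 stood apart: its signals of 12.57, 12.65, 12.47 and 12.02 gave 0.075 at 6 h and -0.45 at 24 h. Its mean signal was at percentile 99.9 of all probe sets, where the array maxima were 13.40 to 13.57. The part of this closeness to the top of the range was not tested. H1-6, the testis form, stayed between 3.15 and 3.32 on all 4 arrays, below the 40th percentile.

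H2A pairs with H2B in the nucleosome core, and its medians were -0.10 at 6 h and -1.17 at 24 h, and 13 of its 17 probe sets reached 2-fold lower at the later time. Lowest were both probe sets shared by H2AC13 and H2AC14, at -3.13 and -3.05. The brighter of these read 10.25 with DMSO and 10.21 with C646 at 6 h, and 10.13 and 7.08 at 24 h. H2AC21 read 10.43, 10.26, 10.41 and 7.91, a difference of -2.50 at 24 h. Both sets of signals were level on 3 arrays and low on the fourth, C646 at 24 h. The brightest H2A probe set, shared by H2AC18, H2AC19 and H2AC20, was at -1.85, H2AC16 at -2.47, H2AC8 at -2.09 and H2AC4 at -1.99. At the other end were H2AC6 at -0.18, H2AC1 at -0.34, a testis gene with signals of 3.33 to 3.67, and the dimmer probe set of H2AC15 at 0.027.

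H2B held the largest difference of the 71 and yet the most probe sets short of 2-fold. Its medians were -0.048 at 6 h and -0.53 at 24 h, with 6 of 19 at least 2-fold lower at 24 h. H2BC3 read 9.36 with DMSO and 8.10 with C646 at 6 h, and 9.29 and 4.42 at 24 h, differences of -1.26 and -4.86. Its vehicle signals differed by -0.076, so both C646 arrays lay clear of both DMSO arrays. H2BC14 read 10.93, 10.79, 10.74 and 7.22, with -0.14 at 6 h and -3.52 at 24 h. H2BC7 was at -2.11 and the probe set shared by H2BC13 and H2BC5 at -2.20. H2BC5's own probe set read 4.60, 4.64, 4.55 and 4.55, with 0.0043 at 24 h, and H2BC18 was at 0.13 with signals of 3.64 to 3.95.

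H3, whose tail carries many acetylation sites, moved from a 6 h median of -0.10 to a 24 h median of -1.73, with 9 of 12 probe sets at least 2-fold lower at 24 h. H3C12 read 8.55 with DMSO and 7.86 with C646 at 6 h, and 8.14 and 4.02 at 24 h, differences of -0.69 and -4.13. H3C1 was at -2.97 and H3C10 at -2.96, and H3C11, the brightest probe set of the family, at -1.89. H3C2 read 8.10, 9.10, 8.84 and 6.02, so it was 1.00 at 6 h and -2.82 at 24 h. Its vehicle arrays differed by 0.74, and against their mean the 6 h value was 0.63. The highest at 24 h were H3C6 at -0.23 and H3-4, a testis gene, at -0.65 with signals of 2.99 to 3.71.

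H4 held both probe sets well below and probe sets above their vehicle values, with medians of -0.064 at 6 h and -0.87 at 24 h and 7 of 15 probe sets at least 2-fold lower at 24 h. H4C3 read 9.84 with DMSO and 9.24 with C646 at 6 h, and 9.41 and 6.65 at 24 h, differences of -0.60 and -2.76. H4C4 read 8.29, 7.65, 8.30 and 5.63, with -0.64 and -2.66. In both genes the C646 signal was below both DMSO signals at 6 h already. H4C8 was at -0.0031 at 24 h, H4C6 at -0.20 after 0.53 at 6 h, and H4C16 at 0.28.

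The probe sets shared by H4C14 and H4C15, a duplicated gene pair on chromosome 1, were higher with C646 at both times. The brighter read 6.74 with DMSO and 7.20 with C646 at 6 h, and 6.23 and 7.03 at 24 h, differences of 0.45 and 0.80. The dimmer read 5.96, 6.36, 5.52 and 6.19, with 0.40 and 0.67. Both C646 signals lay above both DMSO signals in either probe set, but the vehicle itself moved by -0.52 and -0.44 between the times. Set against both DMSO arrays, C646 at 24 h was higher by 0.54 ± 0.24 (SE, limma adjusted p = 0.291) and 0.44 ± 0.21 (limma adjusted p = 0.314).

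**Figure D2:**
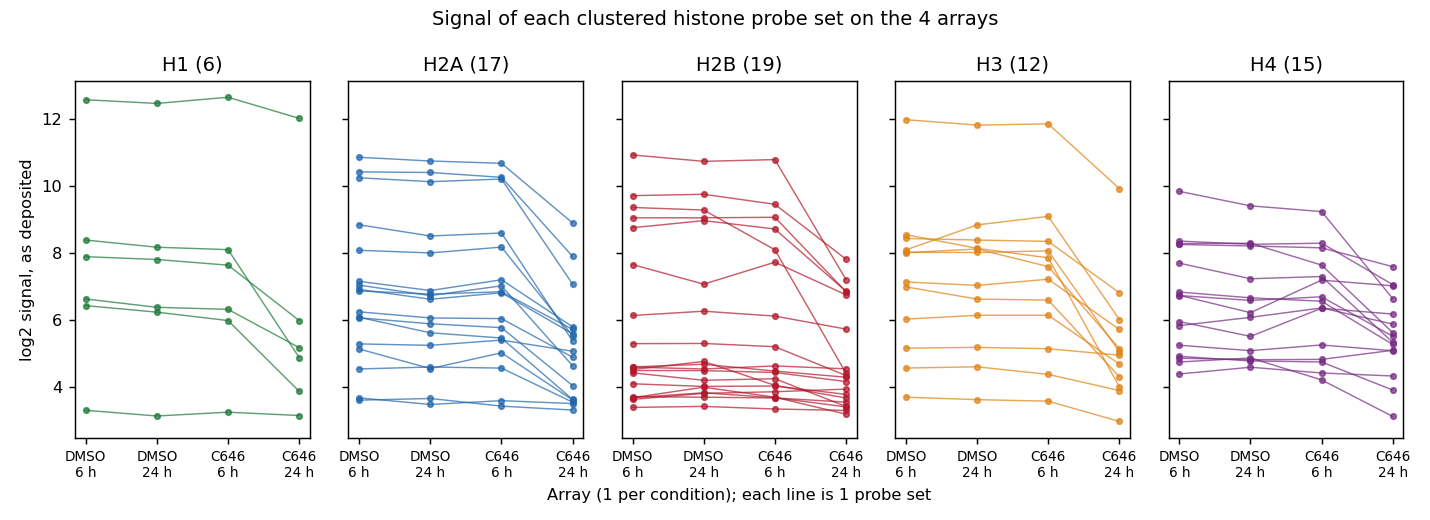
Log2 signal as deposited on the 4 arrays, in panels by family, with 1 line per clustered histone probe set. Probe sets that joined H3 with H2A or H2B symbols are not drawn. Most lines run nearly level over both DMSO arrays and C646 at 6 h. Lines at least 2-fold below DMSO at C646 24 h are 4 of 6 for H1, 13 of 17 for H2A and 6 of 19 for H2B. For H3 they are 9 of 12, and for H4 7 of 15.

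The vehicle cultures changed little on these genes. Subtracting DMSO at 6 h from DMSO at 24 h gave a median of -0.079, and values ran from -0.59 for H2BC21 to 0.74 for H3C2. Negative were 48 of 71, beside 13589 of all 27631 probe sets. None of the 71 differed 2-fold between the DMSO arrays, where 0.0579% of all probe sets were at least 2-fold lower. The 24 h difference minus the 6 h difference had a median of -1.03 and was below 0 for 66 of 71, beside 13535 of all 27631 probe sets. It was below -1 for 36 of 71, where 1.35% of all probe sets were. Across the 71, the 6 h and 24 h differences correlated at r = 0.52 and rho = 0.51, beside 0.37 and 0.34 across all probe sets. They share no array, but near-identical copies share signal, so this is a description only. Of the 40 that were 2-fold lower at 24 h, 32 lay below 0 at 6 h, beside the 51 of all 71.

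With limma, C646 at 24 h was set against both DMSO arrays. In this comparison each error is that of the vehicle pair, pulled by limma towards a trend over all probe sets. There 46 of 71 fell and none rose at an adjusted p under 0.05, where 2.65% of all probe sets fell and 1.95% rose. By family, 4 of 6 H1, 13 of 17 H2A, 8 of 19 H2B, 11 of 12 H3 and 9 of 15 H4 probe sets fell. H2BC3 was at -4.90 ± 0.096 (SE, limma adjusted p = 0.0103), H3C12 at -4.33 ± 0.20 (0.0123) and H1-5 at -3.40 ± 0.13 (0.0103). The lone C646 array is assumed to vary as the vehicle did, and the comparison takes in the vehicle's own drift with time.

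With limma on all 4 arrays and terms for time and treatment, none of the 71 passed an adjusted p of 0.05, and 0% of all probe sets did. Without adjustment, 14 of the 71 were lower and 2 higher at a limma p under 0.05, among 2678 of all probe sets. The error of this model is the disagreement between both times, on 1 residual degree of freedom, pulled in the same way towards a trend over all probe sets. The lowest unadjusted values among members were those of H2BC8 at -0.78 ± 0.17 (SE) and the probe set shared by H4C14 and H4C15 at 0.63 ± 0.14, both with a limma adjusted p of 0.506.

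The size of the 24 h difference went with the vehicle signal of the probe set. Across the 71, the DMSO signal at 6 h, which does not enter the 24 h difference, correlated with that difference at r = -0.66 and rho = -0.74, beside -0.051 and 0.080 across all probe sets. Of 22 probe sets with a 6 h vehicle signal under 5, 3 were at least 2-fold lower, where 0.133% of all probe sets in that range were. Of 21 from 5 to under 7 there were 12, where 2.35% of all were. Of 28 at 7 or more there were 25, where 6.15% of all were, so the share rose with signal over all probe sets too. Signals of different probe sets are not amounts of RNA on 1 scale, and a dim probe set has little room above background, so its part in the spread among copies was not tested.

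These 28 brighter probe sets were also split by family, which left few in each. At least 2-fold lower were 2 of 3 for H1, 7 of 7 for H2A, 5 of 6 for H2B, 7 of 7 for H3 and 4 of 5 for H4, with medians of -1.82, -2.47, -2.15, -2.82 and -1.89. Over all probe sets of each family the medians were -1.51, -1.17, -0.53, -1.73 and -0.87 in the same order. The 3 that did not reach 2-fold were H1-4 at -0.45, H4C5 at -0.62 and H2BC21 at -0.32. H4C5 read 8.26, 8.16, 8.22 and 7.60. H2BC21 read 7.66 with DMSO and 7.73 with C646 at 6 h, and 7.08 and 6.76 at 24 h, so its DMSO signal at 24 h was already lower.

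**Figure D3:**
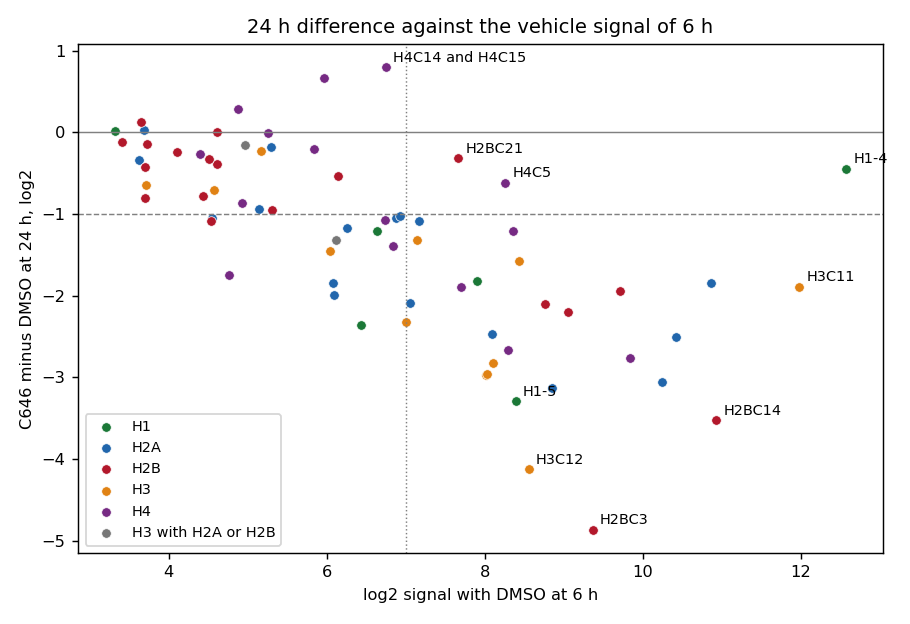
C646 minus DMSO at 24 h (log2) against the log2 signal with DMSO at 6 h, 1 point per clustered histone probe set, coloured by family; the dotted line marks a signal of 7 and the dashed line 2-fold. Of the 28 points right of the dotted line, 25 lie below the dashed line, and H1-4, H4C5 and H2BC21 lie above it.

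Some clustered histone genes are known to make a polyadenylated transcript as well, outside S phase. Of the 7 listed, 6 had a probe set of their own, and 1 of the 6 was at least 2-fold lower at 24 h, with a median of -0.25. They were H2BC5 at 0.0043, H2BC4 at -0.15, H2AC6 at -0.18, H2BC21 at -0.32, H2BC11 at -0.33 and H1-2 at -1.20. Of the other 48 single-gene probe sets 27 were at least 2-fold lower, with a median of -1.13. Of these 6, only H2BC21 had a 6 h vehicle signal of 7 or more, so list and signal move together, and their parts were not tested. The remaining listed gene, H2BC12, had only probe sets shared with H2BC12L, at -1.94 (6 h vehicle signal 9.72) and -0.24 (4.11). A brighter probe set naming H2BC5, shared with H2BC13, was at -2.20 (9.05). Shared values cannot be given to 1 gene.

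Copies that probe sets cannot tell apart gave like values in some cases and not in others. Both probe sets differed by 0.077 at 24 h for H2AC13 and H2AC14, by 0.12 for H3C13, H3C14 and H3C15, by 0.13 for H4C14 and H4C15 and by 0.32 for H4C11 and H4C12. The pair annotated to H2AC18, H2AC19 and H2AC20 read -1.85 and -1.05. The pair annotated to H2BC12 and H2BC12L read -1.94 and -0.24. The probe sets of H2AC15, annotated to that gene alone, read -1.08 and 0.027. In these 3 cases the dimmer probe set showed the smaller difference.

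Many H2A and H2B genes stand back to back and share a promoter region. There were 11 such pairs whose start sites lie within 500 bases, and 7 had a single-gene probe set on either side. H2AC15 has 2 such probe sets, and the brighter was used. The H2A gene was then lower than its H2B partner at 24 h in 7 of 7, and in 6 of 7 with the dimmer probe set of H2AC15, which read 0.027. In H2AC8 and H2BC8 both were at least 2-fold lower, at -2.09 and -1.09. In 4 pairs only the H2A gene was: H2AC25 at -1.84 with H2BC26 at -0.39, H2AC11 at -1.17 with H2BC11 at -0.33, H2AC15 at -1.08 with H2BC15 at -0.42, and H2AC17 at -1.05 with H2BC17 at -0.78. In H2AC6 and H2BC4, at -0.18 and -0.15, and in the testis pair H2AC1 and H2BC1, at -0.34 and -0.12, neither was. The H2A probe set also had the higher DMSO signal at 6 h in 7 of 7, or 6 of 7 with that dimmer probe set, and its part in the order was not tested. Pairs left out for shared probe sets went both ways at 24 h. H2BC14 at -3.52 was below both probe sets naming H2AC14, at -3.13 and -3.05. H2BC7 at -2.11 was below the one naming H2AC7 and H3C4, at -1.32. Both probe sets naming H2AC20, at -1.85 and -1.05, were below H2BC21 at -0.32. Those naming H2AC13, at -3.13 and -3.05, were below the one naming H2BC13 and H2BC5, at -2.20.

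**Figure D4:**
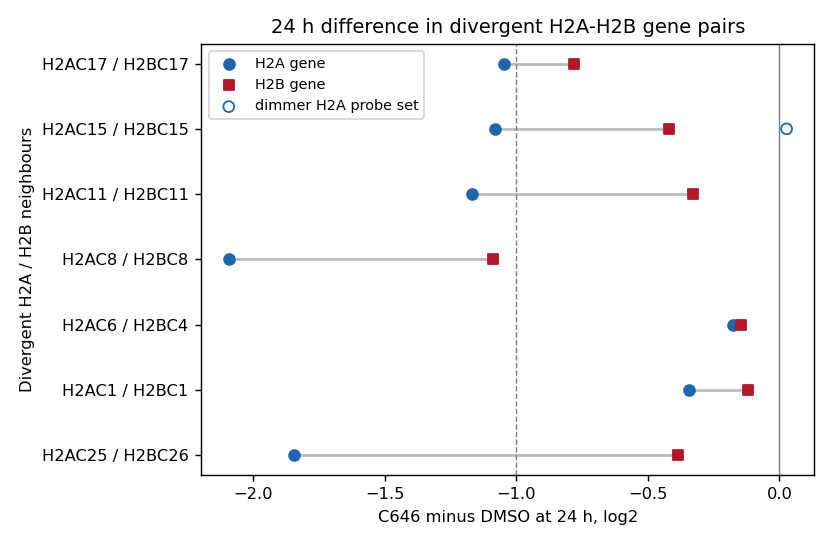
C646 minus DMSO at 24 h (log2) for the 7 divergent H2A and H2B neighbours with a single-gene probe set each; filled circles are H2A genes, squares H2B genes, the open circle is the dimmer probe set of H2AC15, and the dashed line marks 2-fold. Each filled circle lies left of its square, and the open circle at 0.027 lies right of H2BC15 at -0.42.

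Promoter motifs and the 24 h difference were set side by side within families. H2B genes with the octamer had a median of -0.79 (12 genes), from H2BC3 at -4.86 to H2BC18 at 0.13, and the 3 without it one of -0.39. H2BC5, whose sequence above has CCAAT and TATAAA but no octamer, is one of these 3. For H2A the medians were -1.58 with the octamer (8 genes) and -1.46 without (2 genes). Genes with TATAAA in the 250 bases had the lower median in H1 (-1.82 against -1.20), H3 (-2.57 against -1.01) and H4 (-1.20 against -0.41). They had the higher median in H2A (-1.17 against -1.84) and H2B (-0.33 against -0.61). H4C4 at -2.66 and H4C16 at 0.28 both have TATAAA and GGTCCG, and H4C5 at -0.62 has GGTCCG without TATAAA, as has H4C14. These counts are small and were not tested.

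By former cluster name, 56 probe sets named a HIST1 gene, with a median of -1.18 at 24 h and 33 at least 2-fold lower. HIST1 is the cluster on chromosome 6, but a shared probe set can also name a gene outside it. The 11 HIST2 probe sets of chromosome 1 had a median of -1.03 with 6. Of the 3 HIST3 probe sets 1 was 2-fold lower, H2AC25, and the single HIST4 gene, H4C16, was at 0.28. On chromosome 6, the genes from H2AC1 to H4C8 had 33 probe sets with a median of -1.09, those from H2BC11 to H2AC12 had 4 with -0.90, and those from H2BC13 to H2BC17 had 16 with -1.64 and 13 at least 2-fold lower. The other 3 HIST1 probe sets, both of H2BC12 and H2BC12L and the one shared by H2BC13 and H2BC5, name genes that do not lie together in 1 of these stretches.

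Genes that act on histone messenger RNA went different ways at 24 h. Of 21 transcription and processing factors 17 were measured, with medians of 0.020 at 6 h and -0.17 at 24 h, and 3 were at least 2-fold lower. These were the cyclins CCNE2 at -3.67 and CCNE1 at -1.53, which with CDK2 activate NPAT, and the S-phase transcription factor E2F1 at -1.57. CCNE2 read 8.50 with DMSO and 8.26 with C646 at 6 h, and 8.36 and 4.69 at 24 h. The stem-loop binding protein SLBP was at -0.58, CASP8AP2 at -0.47, ZNF473 at -0.80, LSM11 at -0.51 and CDK2 at -0.17, none at 2-fold. The highest were HINFP, the H4 gene activator, at 0.68 and LSM10 at 0.66. Of 9 decay factors none differed 2-fold, with a median of -0.14. The lowest were the exonuclease ERI1 at -0.58 and the decapping enzyme DCP2 at -0.47, and the highest were the uridylyl transferase TUT4 at 0.22 and LSM1 at 0.19.

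Histone genes outside the clusters differed less in the median. Of 12 listed, 8 were measured, with medians of -0.0048 at 6 h and -0.49 at 24 h and 2 at least 2-fold lower. These were CENPA, the centromeric H3, at -1.62 and H2AX, which marks DNA breaks when phosphorylated, at -1.36. H2AZ1 was at -0.68 and H2AZ2 at -0.41. MACROH2A1 was at 0.053 and H2AJ, a variant of H2A, at 0.42, the highest of the list.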

How the data were processed

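RNA of 4 WM35 cultures was measured on Affymetrix Human Exon arrays, 1 per condition, with an input of 100 ng per the labels' protocols. The deposited values are log2 signals per probe set, as their range shows. The authors' summarisation and normalization are not given in the sources used here, and the build was hg19 per the submitters' processing notes. No count or depth exists for arrays, and their number limits the precision. All 4 columns were used, leaving 0 unused. Probe sets were named from the platform annotation updated through RefSeq: 20429 had 1 symbol, 4232 several and 2970 none.

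Differences were taken on the deposited log2 scale with no pseudocount and no filter on low values. With 1 array per condition they carry no p-value, and 2-fold served as a rule of size. Tests were run with limma 3.58.1 in R 4.3.3 (lmFit, eBayes with trend, Benjamini-Hochberg over all 27631 probe sets, threshold 0.05). Only the model on all 4 arrays was tried on simulated data, with planted effects equal at both times. The fit of C646 at 24 h against both DMSO arrays was not tried in this way. Other steps used Python 3.11.15, pandas 2.3.3 and numpy 2.4.6. Alternatives were filters at the 40th and 60th percentile, quantile normalization, single-symbol probe sets, 1 probe set per gene, other fold thresholds, both DMSO arrays as control and leaving out each array, where the time term was dropped as well because 3 arrays leave no residual with it.

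The members and lists were chosen with earlier results of these data known. In each family the text names the 2 highest and 2 lowest probe sets at 24 h and the brightest, over all 71 those 2-fold different at 6 h and the 2 on either side of 2-fold at 24 h, and in each list the 2 highest and 2 lowest genes. The motifs, the promoters shown, the split at a signal of 7 and other members named were chosen after seeing the data.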

Additional observations from a re-analysis of the deposited data

Results flagged for a closer look

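H3C2 went opposite ways at the 2 times: C646 minus DMSO was 1.00 at 6 h and -2.82 at 24 h, so the 24 h difference minus the 6 h difference was -3.82. With 1 array per condition this difference was not tested. Its DMSO arrays differed by 0.74, the largest rise between the vehicle arrays among the 71 probe sets.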

How the results depend on the processing

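Of 47 alternative values, 35 kept their direction and stayed within the tolerance of 0.0748 (the median absolute difference between the DMSO arrays) for medians or within 1.5 times for counts, and no median changed sign. The 24 h median of -1.08 became -1.26 and -1.83 with filters at the 40th and 60th percentile, -1.22 against the mean of both DMSO arrays, and -2.15 in probe sets with a vehicle signal of 7 or more, a split chosen after seeing the data. The difference between both times became -1.13 and -1.52 with those filters and -0.88 over single-symbol probe sets. The count of 1 at 6 h became 5 at 1.5-fold and 0 at 3-fold. The count of 40 of 71 at 24 h became 26 of 71 at 3-fold. In probe sets with a vehicle signal of 7 or more at 6 h it was 25 of 28, a smaller count from a smaller set. With quantile normalization 40 of the 40 stayed 2-fold lower, and 39 did against the mean of both DMSO arrays. Quantile normalization turned the sign of 1 member at 24 h, H2BC5, and of 4 at 6 h. The limma count of 0 ranged from 0 to 46 when each array was left out and the time term with it. The 46 is C646 at 24 h against both DMSO arrays, so it is no test over both times, and the effects of array and term cannot be told apart. No paired analysis was possible because each group holds 1 array and so 1 replicate number, but the time term of the limma fit does compare C646 with DMSO within each time. A dim probe set near background can show only a small fall.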
